A study of Junco hyemalis with 48 samples.

Results

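The dark part of the fourth tail feather and the white sixth tail feather of the dark-eyed junco (Junco hyemalis) were compared within the same birds. The dark part of the fourth rectrix is called the R4 dark part here, and the white sixth rectrix is called R6. Members were the libraries labelled as 4th rectrix and pigmented, or as 6th rectrix and apigmented. They were 26 of the 48 libraries of the series, 13 in each group, and each group held the same 7 birds, called A to G. The study compared dark with white growing tail feathers, and its remaining libraries came from the dark second rectrix (R2) and the white part of the fourth rectrix (R4 white part). All feathers were regrown for 14 days after plucking. R4 was cut into its coloured and white regions before freezing, whereas R6 was frozen whole. Colour, position on the tail and dissection therefore differ together between the R4 dark part and R6, and their parts in any difference cannot be told apart from these libraries alone. The labels give an animal identifier, the tail side and an extraction batch for each library, and no age, sex or population. They carry 7 animal identifiers, whereas the growth protocol speaks of 6 birds. Bird E gave a left feather only in each group, and the others gave a left and a right feather.

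Dark plumage of this kind is coloured by melanin. Pigment cells at the base of the growing feather make melanin in organelles called melanosomes and pass these to the keratin-forming cells of the barbs and barbules. Tyrosinase and its relatives are the best known enzymes of melanin synthesis in vertebrates, and a white feather holds no visible melanin. Each library was made from growing feather tissue, which can hold pigment cells, keratin-forming cells and inner pulp. Whether R6 held pigment cells was not measured, and fewer cells of a type and less RNA per cell cannot be told apart. The files used here pair no gene model identifier with a gene name. No function is given to any gene model, and the labelled tissue was not checked against marker genes. The 4 gene models named below were chosen by their fold and level and for moving the same way in all 7 birds, so that their direction in each bird is fixed by the choice.

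Library totals lay between 16.28 and 39.92 M counts in the R4 dark part and between 17.1 and 41.57 M in R6. Once both sides of a bird were summed, the median tested gene model had 667 counts. Left and right libraries of 1 bird and group differed by more than counting noise in all 12 pairs. The chi-square per gene model was 7.18 to 139.9, where noise alone gives about 1. None of these pairs thus appeared to be 1 library deposited under both sides, and other pairs of libraries were not compared in this way. The R4 dark profile of bird B stood apart from the other profiles, and several results, though not all, are given with and without that bird.

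Between the R4 dark part and R6, 33 gene models were higher and 35 were lower in the R4 dark part. These 68 calls were 0.442% of the 15390 gene models tested, with 0.214% called higher and 0.227% called lower (edgeR quasi-likelihood test with the bird as a block, Benjamini-Hochberg adjusted p below 0.05). At an unadjusted p below 0.05 there were 1239 gene models. The higher gene models had a median log2 fold of 0.83 and ranged from 0.33 to 7.05, where the log2 fold is the R4 dark part over R6. The lower ones had a median of -0.89 and ranged from -2.19 to -0.27. The median over all tested gene models was -0.0034. The largest differences were on the higher side, where 7 called gene models exceeded 4-fold, against 1 called lower. Over all tested gene models, 17 differed by more than 4-fold and 114 by more than 2-fold in either direction, and 8 and 27 of these passed the test.

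The called gene models moved alike in nearly every bird. Of the 33 higher ones, 31 were higher in the R4 dark part in all 7 birds, with bird B the only exception. Of the 35 lower ones, 34 were lower in all 7 birds. These are the birds on which they were called. Over all tested gene models, 3.89% moved 1 way in all 7 birds. Values of the groups did not overlap at all for 10 of the 33 higher and 3 of the 35 lower gene models, and for 0.175% of all tested, of which 0.442% were called. By a strict rule, 0 gene models had no counts in every R6 profile and at least 10 in every R4 dark profile, and 0 showed the reverse. A single count in 1 of the 7 profiles defeats this rule, so it cannot show that no gene model is silent in a group. By read level, 0.268% of gene models below 1 CPM (counts scaled to a library of fixed size) were called, 0.536% between 1 and 10 CPM, 0.469% between 10 and 100 CPM and 0.344% above 100 CPM.

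The number of calls depended on the birds. Without bird B, 415 gene models were called, 196 higher and 219 lower, and 67 of the 68 were among them. Without bird A 19 were called, without D 30, without E 24, without F 17 and without G 25. Without bird C the count was 47. With the bird term left out of the model, 20 were called, 16 higher and 4 lower. Scaling by total counts alone gave 26 higher and 16 lower calls in place of 33 and 35. A fit of all 4 groups, in which the white R4 part and R2 enter the estimate of the spread, called 86 higher and 70 lower, and held 59 of the 68.

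**Figure D1:**
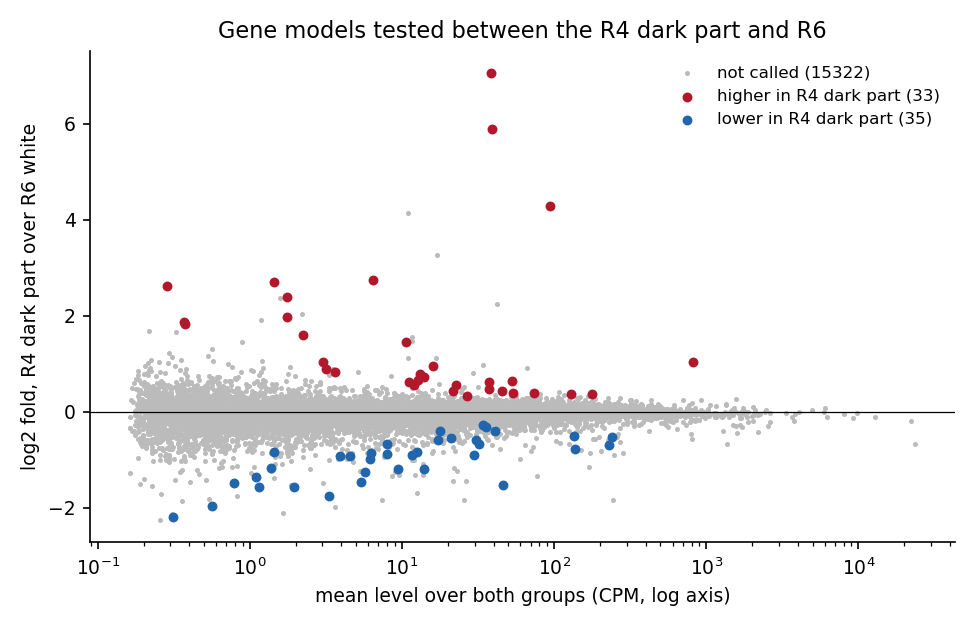
Log2 fold of the R4 dark part over R6 (vertical axis) against the mean level over both groups in CPM on a log axis, with 1 point for each of the 15390 gene models tested. The 33 called higher (red) reach a log2 fold of 7.05, whereas the 35 called lower (blue) end at -2.19.

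The highest fold of all belonged to g3235. Its level in the R4 dark part was 4.31 CPM in the lowest bird, 76.7 CPM at the median and 142 CPM in the highest. In R6 it was 0.23 CPM at the lowest, 0.34 at the median and 0.93 at the highest. Of the R4 dark profiles, 6 lay at 54.4 CPM or above and bird B far below them, near its own R4 white part at 3.22 CPM. All R6 profiles were under 1 CPM, and the groups did not overlap. The log2 fold was 7.05 (SE 0.44, adjusted p = 0.00285), higher in the R4 dark part in 7 of 7 birds. The log2 difference within a bird was smallest in bird B, at 3.96, and largest in bird C, at 8.73. By extraction batch its mean was 5.31 in batch 1 (birds A and B), 7.04 in batch 2 (C, D and E) and 7.77 in batch 3 (F and G). Without bird B, batch 1 is bird A alone, at 6.66. The R6 values rest on 12 to 50 counts per profile. Single feathers also kept apart, since the lowest R4 dark library, the right feather of bird B, had 1.30 CPM from 23 counts, against 1.00 CPM in the highest R6 library.

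The gene model g2687 showed a like pattern. It had 9.23 CPM in the lowest, 83.6 CPM in the median and 110.4 CPM in the highest bird in the R4 dark part. In R6 the corresponding values were 0.17, 0.92 and 4.05 CPM. Bird B was again the low value of the R4 dark part and bird E the high value of R6, and the groups did not overlap. The log2 fold was 5.90 (SE 0.63, adjusted p = 0.0128), higher in 7 of 7 birds. The mean log2 difference was 4.47 in batch 1, 5.94 in batch 2 and 7.55 in batch 3. Within batch 1 it was 6.25 in bird A and 2.69 in bird B, so the low mean of that batch rests on bird B. Its call was lost without bird A (adjusted p = 0.0655), C (0.0550), D (0.0764) or F (0.0589), whereas the log2 fold stayed between 5.65 and 6.39 under all 18 alternatives. That of g3235 stayed between 6.74 and 7.42 and was called under all 18.

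Both of these gene models differed between sides of the tail in some birds. In the R4 dark part of bird D, g3235 had 31.9 CPM in the left and 104.7 CPM in the right feather, and g2687 had 38.0 and 134 CPM. Between the sides of this bird, 710 of 10351 gene models with a mean of at least 5 CPM differed by more than 2-fold. The left feather was the higher in bird F, at 107 and 56.9 CPM for g3235 and at 105 and 60.5 CPM for g2687. It was also the higher in bird B, at 7.77 and 1.30 CPM for g3235 and at 11.7 and 7.31 CPM for g2687. In bird A the sides were close, at 98.7 and 93.3 CPM for g3235 and at 89.2 and 87.7 CPM for g2687. In R6 no library of g3235 exceeded 1.00 CPM and none of g2687 exceeded 4.07 CPM.

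Among the lower gene models with a mean of at least 5 CPM, g16903 had the largest fold. Its level in the R4 dark part was 11.9 CPM in the lowest, 16.5 CPM in the median and 54.7 CPM in the highest bird, and in R6 it was 39.0, 55.3 and 103 CPM. The ranges overlapped through bird F, whose R4 dark value was the highest, but each bird was lower in the R4 dark part than in its own R6. The log2 fold was -1.53 (SE 0.22, adjusted p = 0.0425), lower in 7 of 7 birds. The mean log2 difference was -1.79 in batch 1, -1.56 in batch 2 and -1.31 in batch 3. This call was close to the threshold. It was lost without bird A (adjusted p = 0.167), B (0.0672), D (0.146), E (0.0532), F (0.0644) or G (0.153), and without the bird block (0.228).

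The gene model g16209 differed more between birds than between feathers. In the R4 dark part it ran from 0.34 CPM through a median of 1.66 CPM to 5.46 CPM, and in R6 from 0.95 through 6.32 to 24.0 CPM. The groups overlapped between 0.95 and 5.46 CPM, and the R6 median lay above the highest R4 dark value. The R4 dark part was below R6 within each bird, as the rule of choice asked. The log2 fold was -1.47 (SE 0.23, adjusted p = 0.0261). Without the bird block the adjusted p was 1.00. The mean log2 difference was -1.66 in batch 1, -0.83 in batch 2 and -2.04 in batch 3. The call was also lost without bird A (adjusted p = 0.126), D (0.0928), E (0.0525), F (0.0992) or G (0.0755), and profiles of the R4 dark part held between 19 and 267 counts.

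**Figure D2:**
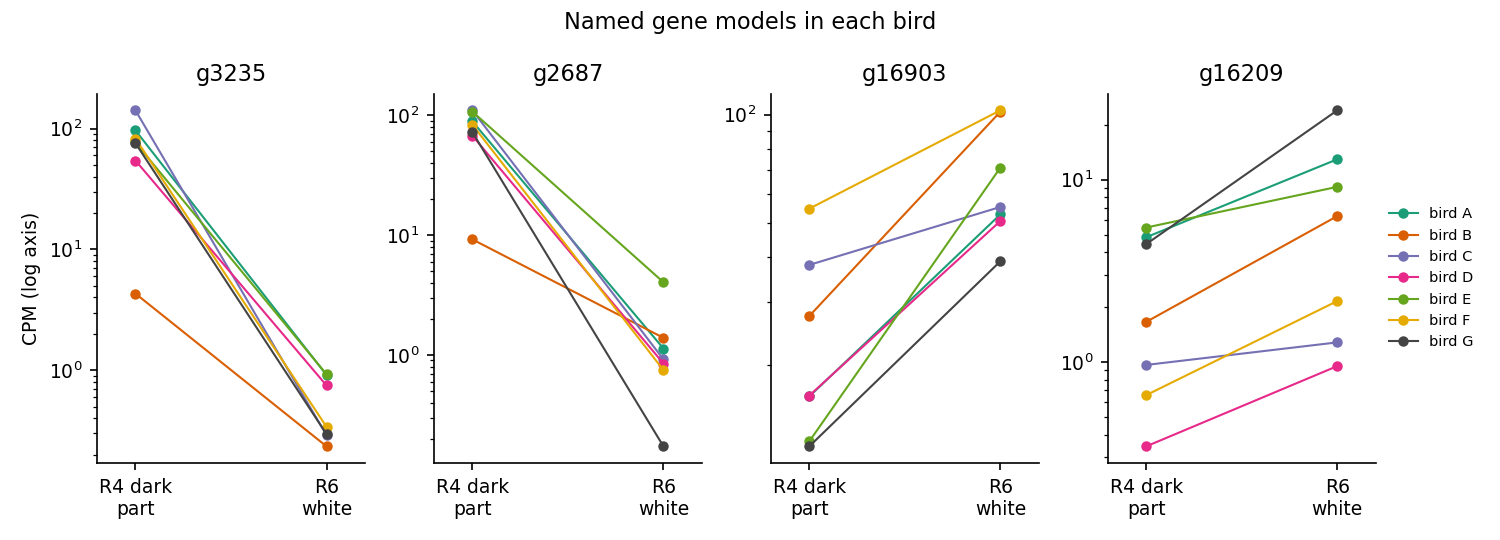
Level in CPM on a log axis of the 4 named gene models in the R4 dark part and R6, with 1 line for each of the 7 birds. In all 7 birds the R4 dark part is above R6 for g3235 and g2687 and below it for g16903 and g16209, and bird B has the lowest R4 dark values of g3235 (4.31 CPM) and g2687 (9.23 CPM).

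The most abundant gene model called higher, which also had the smallest p of all, changed by a smaller fold. It averaged 1108 CPM ± 208 in the R4 dark part and 539 CPM ± 99.8 in R6 (SD, n = 7 birds each). Its lowest R4 dark profile had 801 CPM, above the highest R6 profile at 689 CPM. The log2 fold was 1.04 (SE 0.08, adjusted p = 0.00164), higher in 7 of 7 birds. The most abundant gene model called lower averaged 199.5 CPM ± 58.7 in the R4 dark part and 283 CPM ± 59.1 in R6 (SD, n = 7 each). Its log2 fold was -0.53 (SE 0.09, adjusted p = 0.0357), and the ranges overlapped. Together the 33 higher gene models took 0.158% to 0.320% of all counts in the R4 dark part and 0.106% to 0.145% in R6. The 35 lower ones took 0.0734% to 0.115% in the R4 dark part and 0.126% to 0.174% in R6. Both lists thus make up a small share of the RNA in each profile.

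The R2 and R4 white libraries took no part in the calls and form a dark and white pair of their own, with 5 birds in common. All 33 higher gene models were also above 0 in R2 minus the R4 white part. Their median difference was 0.86 on the log2 CPM scale, where over all tested gene models the median was 0.00065 and 50.1% were positive. For the 35 lower gene models the median was 0.15, with 14 below 0 and 21 above. The same birds gave all of these feathers. For the larger lists called without bird B, 191 of the 196 higher gene models were above 0 in R2 against the R4 white part, with a median of 0.49 over the 4 other birds. Of the 219 lower ones 106 were below 0, with a median of 0.0095. The R4 white part was cut from the same feathers as the R4 dark part, so the libraries of this pair are separate, whereas birds and R4 feathers are shared.

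Other pairs share libraries with the comparison and are given as values only. Against the same R6 profiles, the 35 lower gene models had a median log2 difference of -0.75 in the R4 white part, all 35 of them below 0, and of -0.41 in R2, with 32 below 0. Over the 33 higher gene models these medians were 0.16 for the R4 white part, with 27 above 0, and 1.09 for R2, with all 33 above 0. Within R4, where the dark profiles are shared, the dark part differed from the white part by a median of -0.11 over the lower gene models and by 0.80 over the higher ones. Over the higher gene models R2 lay above the R4 dark part by a median of 0.25, with 31 of 33 above 0. Where bird B took part neither in the calls nor in the values, this median was 0.029 over another list, of 196 gene models. That list also had a smaller median difference between R4 dark and R6, at 0.47 against 0.82. List and birds change together here, so their parts in the lower value cannot be told apart. Over all tested gene models the medians of these pairs lay between -0.0062 and 0.0049.

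Mean log2 CPM over the higher list was 4.02 ± 0.38 in R4 dark and 2.56 ± 0.20 in R6 (SD, 7 birds each). In the other libraries it was 4.39 ± 0.14 in R2 and 2.93 ± 0.26 in R4 white (SD, 6 birds each). Bird B was lowest of the R4 dark profiles at 3.31, and bird F highest of the R4 white profiles at 3.42. All other R4 dark profiles were at 3.996 or more, and all other R4 white profiles at 2.96 or less. The lower list averaged 2.59 ± 0.23 in R4 dark and 3.57 ± 0.16 in R6 (SD, 7 birds each). Its means were 2.84 ± 0.20 in R2 and 2.74 ± 0.15 in R4 white (SD, 6 birds each). All 7 R6 profiles were at 3.32 or above, over the highest profile of any other group at 3.07. Both lists were chosen on the R4 dark and R6 profiles, so the distance between these groups is fixed by the choice. The same R6 values enter the distance of R6 from R2 and R4 white, which the choice can widen.

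**Figure D3:**
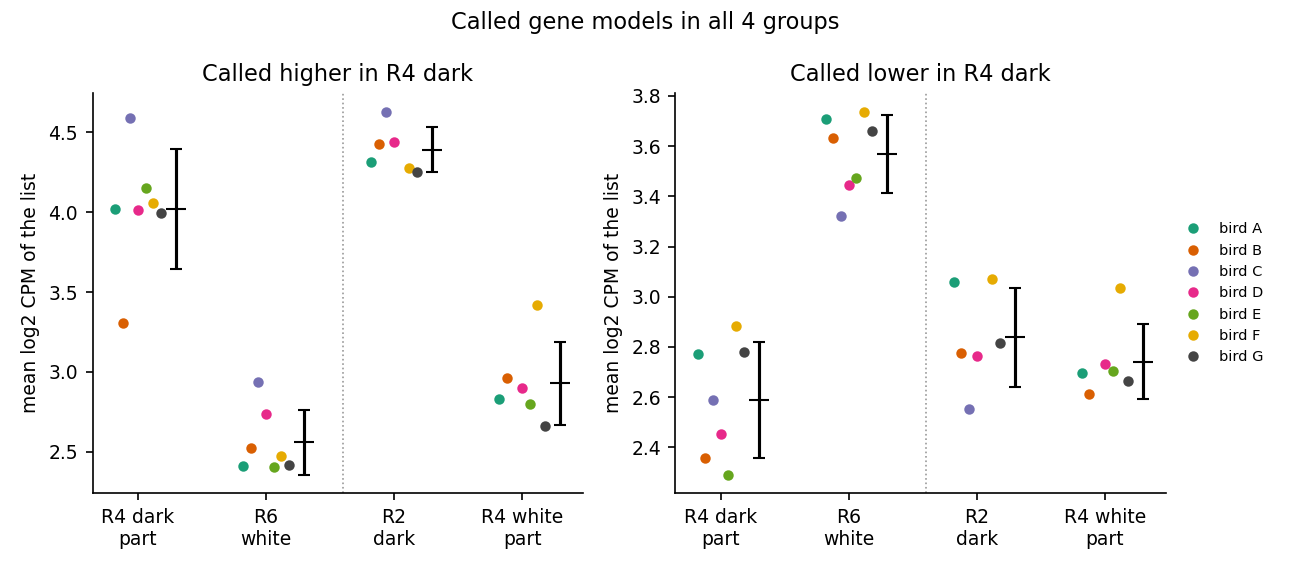
Mean log2 CPM of the 33 gene models called higher (left panel) and the 35 called lower (right panel) in each profile of the 4 groups. Points are birds, horizontal ticks with bars are mean ± SD, and the dotted line separates the groups used for the calls (R4 dark part and R6) from R2 and the R4 white part. The higher list is high in both dark groups, at means of 4.02 and 4.39, and the lower list is highest in R6, at 3.57. Both lists were chosen on the R4 dark and R6 profiles, so their order in these groups is fixed by the choice.

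The named gene models were also measured in the other libraries. In R2, g3235 had 104.9 to 148 CPM and g2687 had 109 to 132 CPM, and in the R4 white part they had 2.99 to 24.0 and 2.99 to 29.0 CPM. The R4 white values were thus above every R6 value of g3235, with overlap for g2687. For g16903, R2 averaged 53.5 CPM ± 14.1 and the R4 white part 22.9 CPM ± 9.71 (SD, n = 6 each), against 25.3 ± 16.0 in the R4 dark part and 67.6 ± 25.5 in R6 (SD, n = 7 each). The order for g16903 was therefore R6, R2, R4 dark and R4 white, and neither the whole feathers nor the R4 parts stood apart from each other by more than their SD. Levels of g16209 in R2 ran from 0.84 to 22.3 CPM and in the R4 white part from 0.56 to 23.4 CPM, over most of the range of the other groups.

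Whether the dark against white difference was the same on the outer step (the R4 dark part against R6) and on the inner step (R2 against the R4 white part) was tested in 1 fit of all 4 groups. It differed for 64 of 15844 gene models, or 0.404%, of which 5 had a more positive and 59 a more negative log2 fold on the outer step. The median of the 59 was -1.59. By its construction this test also sets both R4 parts against both whole feathers, so dissection and step cannot be told apart. It also holds 1 library from another extraction batch than the rest of its bird, the R4 white part of bird E, and without that bird 56 gene models passed. Of the 33 gene models called higher, 0 passed in edgeR, 7 had an unadjusted p below 0.05, and DESeq2 called 1 and limma voom 4. Of the 35 called lower, 10 passed in edgeR, each with a more negative fold on the outer step, 23 had an unadjusted p below 0.05, and DESeq2 and limma voom called 18 each. The median over the 35 was -0.83, with 34 below 0, and over the 33 it was -0.022, with 18 below 0. Over all 15844 gene models the median was 0.0073, and 1508 had an unadjusted p below 0.05. Of these 15844, DESeq2 called 145 and limma voom 421. Both lists were chosen on R4 dark and R6 profiles that also enter this test. For g16903 the colour differences differed by -2.78 on the log2 scale (SE 0.38, adjusted p = 0.000801). Those of g16209 differed by -1.83 (SE 0.41, adjusted p = 0.0593), of g3235 by 2.82 (SE 0.82, adjusted p = 0.243) and of g2687 by 2.10 (SE 0.70, adjusted p = 0.340), and none of these 3 passed.

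Birds differed in how far the R4 dark part lay from R6. Among 10351 gene models with a mean of at least 5 CPM, bird B had 890 that differed by more than 2-fold, 19 higher and 871 lower in the R4 dark part. The other 6 birds had between 34 and 85. The log2 differences of bird B correlated across gene models with the mean of the other birds at r = 0.051, and those of the other birds between 0.305 and 0.646. These are correlations across gene models that share a library, given as a description. Gene models called without bird B could be measured in it. Of those called higher, 80 of the 194 measured were above 0 in bird B, or 41.2%, with a median log2 difference of -0.13. Of those called lower, 137 of 218 were below 0, or 62.8%, with a median of -0.43, where 51.4% of all tested gene models were below 0 in this bird. Over the 33 gene models called higher with all birds, the median log2 difference was 0.52 in bird B and 0.70 to 1.11 in the other birds, and over the 35 called lower it was -1.07 in bird B and -1.02 to -0.64 in the others. Bird B took part in the calls of these 33 and 35, so their direction in it is no separate evidence. By extraction batch the median of the higher list was 0.75, 0.80 and 0.93 in batches 1, 2 and 3, and that of the lower list -0.91, -0.92 and -0.75. Without bird B, batch 1 is bird A alone, at 1.04 for the higher list and -0.83 for the lower.

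**Figure D4:**
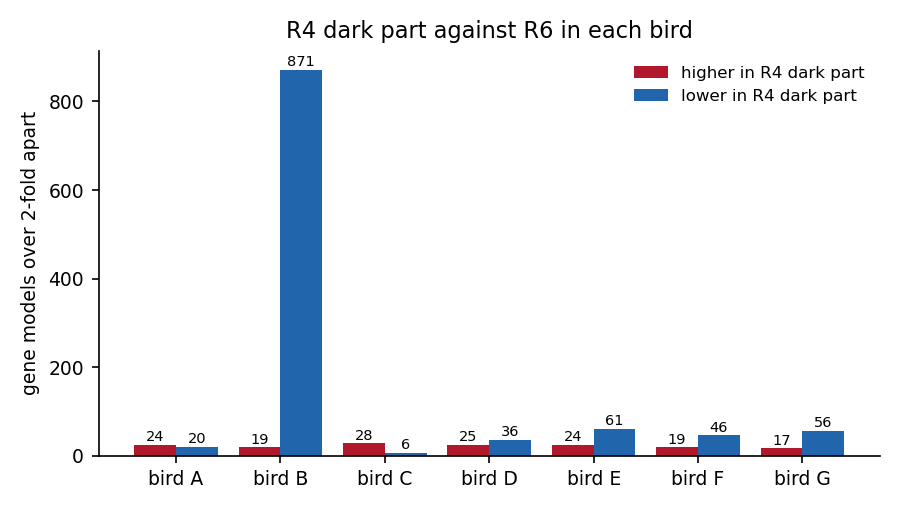
Number of gene models, of 10351 with a mean of at least 5 CPM, that differed by more than 2-fold between the R4 dark part and R6 within each bird, higher (red) or lower (blue) in the R4 dark part. Bird B has 871 lower gene models, and the other birds have 6 to 61.

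The R4 dark part varied more from bird to bird than R6. The SD of log2 CPM over the 7 birds had a median of 0.27 in the R4 dark part and 0.20 in R6, and it was larger in the R4 dark part for 74.1% of tested gene models. Without bird B these medians were 0.23 and 0.20, and the share was 61.4%. The sides of a bird also differed more in some R4 dark pairs. In the R4 dark part, 1085 gene models differed by more than 2-fold between the sides of bird B, 710 in bird D, 182 in bird G and 12 to 31 in birds A, C and F. In R6 the 6 pairs had 14 to 34. Which part of a dissected feather entered each tube was not measured in these files, and its part in the spread was not tested.

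Each side of the tail was also fitted alone. Left feathers of 7 birds gave 7 higher and 2 lower calls among 14342 gene models tested. Right feathers of 6 birds gave 6 calls among 14327, all higher. How often all tested gene models had the same sign on both sides was not measured. Of the 7 called higher on left feathers, 6 were also higher on right feathers, with a median log2 fold of 2.54, and 4 were called on both sides. The remaining gene model had a log2 fold of -0.15 on the right. All 6 called on right feathers were higher on left feathers, with log2 folds between 1.09 and 6.91. Both gene models called lower on left feathers were below 0 on right feathers, at -0.92 and -0.72. Both sides come from the same birds, so they repeat the feather and not the animal.

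**Figure D5:**
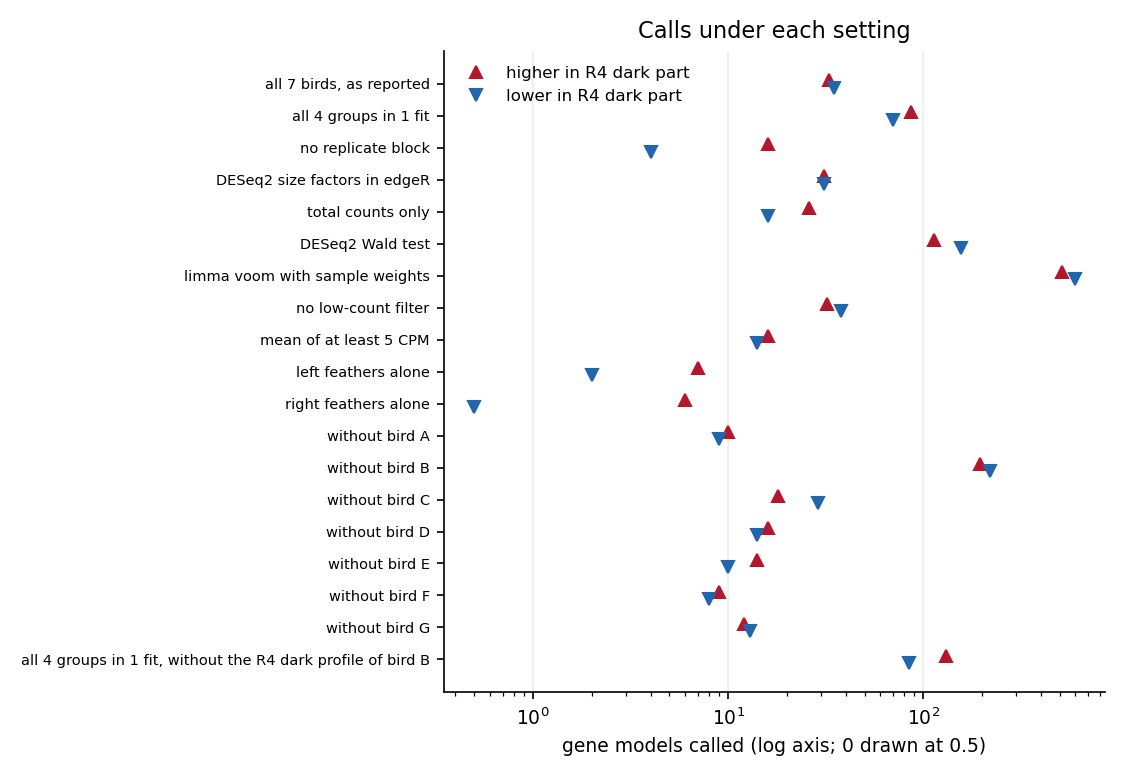
Number of gene models called higher (red) and lower (blue) in the R4 dark part than in R6 under each setting, on a log axis with 0 drawn at 0.5. The reported counts are 33 and 35, and they range from 6 and 0 with right feathers alone to 516 and 597 with limma voom.

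The composition of the libraries was compared by how much of each profile its top 20 gene models took. In the R4 dark part this share was 11.5% at the lowest, 13.5% at the median and 16.2% at the highest, and in R6 it was 14.1%, 15.1% and 15.7%. It was lower in the R4 dark part in 6 of 7 birds, by a mean of -1.31 percentage points ± 1.69 (SD, n = 7), which did not pass an exact permutation test that flips the sign of each bird's difference (two-sided p = 0.109, where the smallest possible value is 0.0156). Bird B was the exception, at 1.10. Without it the mean difference was -1.71, with an exact permutation p of 0.03125, the smallest that 6 birds can give. Bird B was the only bird of the opposite sign, so leaving it out fixed this p in advance, and it is no separate evidence. Leaving out any other single bird gave an exact permutation p between 0.125 and 0.219.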

How the data were processed

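Tail feather RNA was sequenced as stranded mRNA libraries with 75 bp reads, per the labels' protocols. Per the submitters' processing notes, the tools were STAR 2.7.2b, Trimmomatic 0.33, bcl2fastq, Subread 1.6.0 and featureCounts, named without roles or order. Their settings and strand option, the genome build and the gene annotation were not given in the sources used here, so overlapping or near-identical gene models could not be recognised. The authors deposited 1 table of raw counts for 20808 gene models, with no normalization, and all 48 columns were matched by library name.

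Left and right counts were summed per bird and group. The 14 R4 dark and R6 profiles were fitted with edgeR 4.0.16 in R 4.3.3 (TMM factors, default expression filter, robust quasi-likelihood F test, group and bird). These groups were fitted alone because the R4 parts spread more than whole feathers, although R4 dark itself stays in this fit. The median SD of log2 CPM over birds was 0.27 in R4 dark, 0.26 in R4 white, 0.22 in R2 and 0.20 in R6. Without bird B it was 0.225 in R4 dark and 0.220 in R2, so most of that excess of R4 dark over R2 rests on this bird. The difference between steps used all 26 profiles. Adjusted p-values come from edgeR unless named otherwise. DESeq2 1.42.0 and limma 3.58.1 were alternatives. CPM values use TMM-scaled totals of the 26 profiles, and log2 CPM a prior count of 2. SE are the fold divided by the square root of F. The fitting was tested on simulated data without bird differences and with equal spread in both groups, unlike the data here.

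Pairing comes from the same animal. Deviations from group means correlated between same-bird profiles at r = 0.18 to 0.65, and between different birds at -0.24 to 0.077. The bird term also holds the 3 extraction batches, since R4 dark and R6 of a bird were extracted in 1 batch. The R4 white library of bird E was extracted in batch 3 and its other libraries in batch 2, so in the fit of 26 profiles the bird term does not hold batch for it. P-values of the fits with the bird term set a difference against the variation left after that term. For the R4 dark part against R6 this is how the within-bird difference varied between birds, not how levels varied between birds. Named gene models were the 2 in each direction with the largest fold among those called, at 5 CPM or more on average and moving 1 way in 7 birds. The comparison, the lists and the rule were chosen with earlier results of these data known. The most abundant gene models were picked after their values were seen.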

Additional observations from a re-analysis of the deposited data

Results flagged for a closer look

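In 21 groups of 7 values examined, 2 values lay far from the rest of their group, and chance flags about 1 in 20 groups. In the R4 dark part g2687 was at 9.23 CPM in bird B, and the nearest other value was 67.8 CPM. In R6 it was at 4.05 CPM in bird E, and the nearest other value was 1.39 CPM. Both were flagged on the CPM scale, and other values can stand out on a log scale. The R4 dark value of g3235 in bird B, at 4.31 CPM with the next at 54.4 CPM, was not flagged. The test of the difference between the outer and the inner step passed for 64 gene models, and g16903 was among them, with a log2 difference of -2.78.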

How the results depend on the processing

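The 68 calls between the R4 dark part and R6 became 156 with all 4 groups in 1 fit, 214 in that fit without bird B's R4 dark profile (an alternative chosen after the data were seen), 42 with total counts only, 30 with a mean of at least 5 CPM, 9 with left and 6 with right feathers alone, 269 with DESeq2 and 1113 with limma voom and sample weights. All 68 were among the calls of both tools. Without the replicate block 20 were called, 15 of them among the 68. Leaving out 1 bird at a time gave between 17 and 415. The count stayed within 1.5 times with DESeq2 size factors in edgeR and without the low-count filter. The 64 gene models of the difference between steps became 17 without the replicate block, 145 with DESeq2, 421 with limma voom and 18 with right feathers alone, and between 32 and 65 without 1 bird. They became 81 where only the R4 dark profile of bird B was left out, also an alternative chosen after the data were seen. The share taken by the top gene models differed by -1.25 percentage points with 10 in place of 20 gene models (exact permutation p = 0.0469). With 50 gene models it differed by -1.37 (exact permutation p = 0.109). With left feathers alone it differed by -1.20 (exact permutation p = 0.266) and with right feathers alone by -0.80 (exact permutation p = 0.469). Without 1 bird the difference was -1.71 to -0.91. No direction reversed for the 4 named gene models under their 18 alternatives. They were chosen for moving the same way in every bird, so their direction was largely fixed by the choice. The kept direction is therefore no separate evidence. Calls were lost under 11 alternatives for g16903, 8 for g16209 and 4 for g2687. Scaling moved the median log2 fold of all gene models by less than 0.1.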

Other observations

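Called gene models lay near each other in the numbering of the table more often than tested gene models in general were called. Counted around each gene model called higher in turn, there were 132 tested neighbours within 3 numbers, and 6 were called, or 4.55%. Around those called lower there were 139, and 6 were called, or 4.32%. All called neighbours moved in the direction of their list. A neighbour shared by several gene models was counted each time, and a called pair from both of its ends. The called neighbours are thus 6 members of each list seen from one another, so these shares rest on few pairs. Over all tested gene models 0.442% were called. The sources used here do not say what the order of the numbers stands for. The distance of 3 was chosen after the lists had been seen, and no test was made.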
